A study of Homo sapiens with 3 samples.

Results

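The cytosolic ribosomal protein genes are the genes for the proteins of the large (RPL) and small (RPS) subunits of the ribosome that translates messenger RNA outside the mitochondria. They were taken as the non-control probes whose gene name is RPL or RPS followed by a number and, where present, a letter or a paralog ending, together with RPLP0, RPLP1, RPLP2 and RPSA. The rule used names alone. It matched 82 of 41810 gene names on the array, with 165 probes, 51 names being of the large and 31 of the small subunit. No probe matched RPSA or RPL10. The probe with the highest mean signal over the arrays stood for each gene. Of the 82 genes, 80 had a probe with a usable spot on every array, and 79 were measured, all of them well above background on all 3 arrays. RPL39L was well above background on no array. RPS12 and RPS27A each had a single probe, whose spot on the PRMT1-KD1 array was marked as non-uniform.

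Total RNA came from HCT116, a human colorectal carcinoma cell line, after transfection with siRNA. PRMT1 is the main enzyme for asymmetric dimethylation of arginine in proteins, histone H4 included. The groups were a negative control (NC) and PRMT1 knockdowns called PRMT1-KD1 and PRMT1-KD2 (KD1 and KD2 below), and each was 1 array of a 1-colour Agilent platform, on 1 slide with 1 scan time. The labels list a pair of siRNA sequences against PRMT1 without saying which was used for which array, and name neither the time after transfection nor the control oligonucleotide. With 1 array per group there were no replicates, array position and group cannot be told apart, and differences below are differences between arrays. In bulk RNA, fewer cells of a type and less RNA per cell cannot be told apart.

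Ribosomal proteins are made from some of the most abundant messenger RNAs of a growing cell, in near equal numbers, since each ribosome holds a single copy of nearly all of them. Most of these RNAs start with a C followed by a run of pyrimidines, the 5′ terminal oligopyrimidine (TOP) sequence, through which mTOR and LARP1 control their translation together. Several members also have duties away from the ribosome, and RPL5, RPL11 and RPL23 bind and inhibit MDM2, the ubiquitin ligase of p53. RPS2 carries methylated arginines, placed there by PRMT3.

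Start-site windows from RefSeq (GRCh38.p14) are shown first because most members share a feature there that most of the paralogs in the table lack. Each line gives 15 bases before and 15 bases from the annotated start, on the transcribed strand, with a C followed by at least 4 C or T at the start itself in capitals. The first 5 genes, all with such a run, are RPL21, RPS3A, RPLP0, RPS6 and RPL11, of both subunits and the stalk. The others are parent genes with their paralogs, and RPL7L1. Another annotated start of RPL11 and the starts of RPL6 lack such a run and are not shown.
RPL21, chr13:27251543-27251572, plus strand: cggccccgcctctttCCTTTCggccggaac
RPS3A, chr4:151099613-151099642, plus strand: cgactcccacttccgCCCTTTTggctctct
RPLP0, chr12:120201097-120201126, minus strand: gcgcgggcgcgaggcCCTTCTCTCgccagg
RPS6, chr9:19380222-19380251, minus strand: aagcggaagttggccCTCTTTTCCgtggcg
RPL11, chr1:23691791-23691820, plus strand: cggaagctccgctttCTCTTCCTgctctcc
RPS27, chr1:153990747-153990776, plus strand: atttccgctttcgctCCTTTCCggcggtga
RPS27L, chr15:63157463-63157492, minus strand: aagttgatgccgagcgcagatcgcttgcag
RPL22, chr1:6199581-6199610, minus strand: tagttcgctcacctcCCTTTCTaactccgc
RPL22L1, chr3:170870181-170870210, minus strand: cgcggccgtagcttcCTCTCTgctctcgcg
RPL26, chr17:8383179-8383208, minus strand: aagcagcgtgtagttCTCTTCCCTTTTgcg
RPL26L1, chr5:172958714-172958743, plus strand: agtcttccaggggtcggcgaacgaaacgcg
RPL7L1, chr6:42879601-42879630, plus strand: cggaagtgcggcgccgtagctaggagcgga

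The table of starts held 65 of the 82 members, and 45 of them (69.2%) had such a start, read on the transcribed strand only. Among all 27305 gene symbols of the table the share was 5.14%, and among 69 genes of the mitochondrial ribosome it was 8.70%. RPS27L, RPL26L1, RPL7L1 and RPL10L had none at the annotated start, whereas RPL22L1 had. Of the members, 10 had more than 1 annotated start, RPL11 and RPL26L1 among them, and the count took any of them. Of the 63 members that were also measured, the 43 with the tract had a median log2 change against NC of -0.32 in KD1 and -0.21 in KD2. The 20 without it had medians of -0.27 and -0.22. A match describes letters at the annotated start and shows nothing about translation, which was not measured.

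The targeted gene was checked first. The normalized log2 signal of PRMT1 (log2 of the signal minus the 75th percentile of the array) was 6.03 in NC, 2.75 in KD1 and 1.48 in KD2, which left 10.3% and 4.26% of the NC signal. Both knockdown arrays went with their labels. Of 9 epithelial markers 7 were measured, and EPCAM read 6.47, 6.74 and 6.46 in NC, KD1 and KD2. Past 1.5-fold, KRT8 was lower in KD1 (-0.89) and CDH1 higher in KD1 (0.94) and KD2 (0.76). KRT18 was lower by less than 1.5-fold (-0.54 and -0.56), and KRT20 and VIL1 were well above background on no array. Of 5 fibroblast markers only COL1A1 was measured. Of 3 endothelial markers VWF and CDH5 were measured, both dim, and CDH5 was higher in KD1 (1.46) from -2.24 in NC. The leukocyte marker CD14 was well above background on all 3 arrays, at -0.55, -0.52 and 0.03 in NC, KD1 and KD2. Between 40.8% and 42.5% of probes were well above background on an array. Spots marked as non-uniform numbered 6 in NC, 141 in KD1 and 5 in KD2, and 19 of the 141 were spots of members, against 0 in NC and KD2. They were left out, with the outcome when kept given where it changed a result.

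Most ribosomal protein genes lay slightly below NC in both knockdowns, close together. On the log2 scale the median member was -0.32 in KD1 and -0.21 in KD2, where the median of all measured genes was -0.07 and -0.05. Of 79 members, 73 were below NC in KD1 and 69 in KD2, and 69 were below in both, against 55.5% and 54.3% of all genes. The quartiles of the members were 0.21 apart in KD1 and 0.18 in KD2, whereas those of all genes were 0.69 and 0.59 apart. Those of 109 other genes about as bright, defined below, were 0.20 and 0.22 apart, so the narrow spread was not particular to the members. The large subunit (50 genes) had medians of -0.32 and -0.21 and the small subunit (29 genes) -0.32 and -0.22. KD1 and KD2 share the NC array, so a low or high reading in NC enters both changes of a gene.

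Brightness moved with this shift. The 109 other genes with a mean signal at or above the first quartile of the members had a median of -0.39 in KD1 and -0.17 in KD2, and 93.6% and 89.9% of them were below NC, so the members' medians lay between those of equally bright other genes and of all genes in KD1 and slightly below them in KD2. The scaling also decided the sign. With quantile normalization the median member was 0.030 in KD1 and 0.014 in KD2, and with scaling to the E1A spike-in probes, chosen after seeing the data, it was 0.33 and 0.08, while the median of all genes moved to 0.58 and 0.24. Relative to the median of all genes the members were -0.25 and -0.16 under any single scaling factor on the same probes, and 0.07 and 0.04 under quantile normalization. Whether the members share a direction beyond brightness and scaling was not tested. A difference of a member from the median member, given below, does not depend on such a factor.

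**Figure D1:**
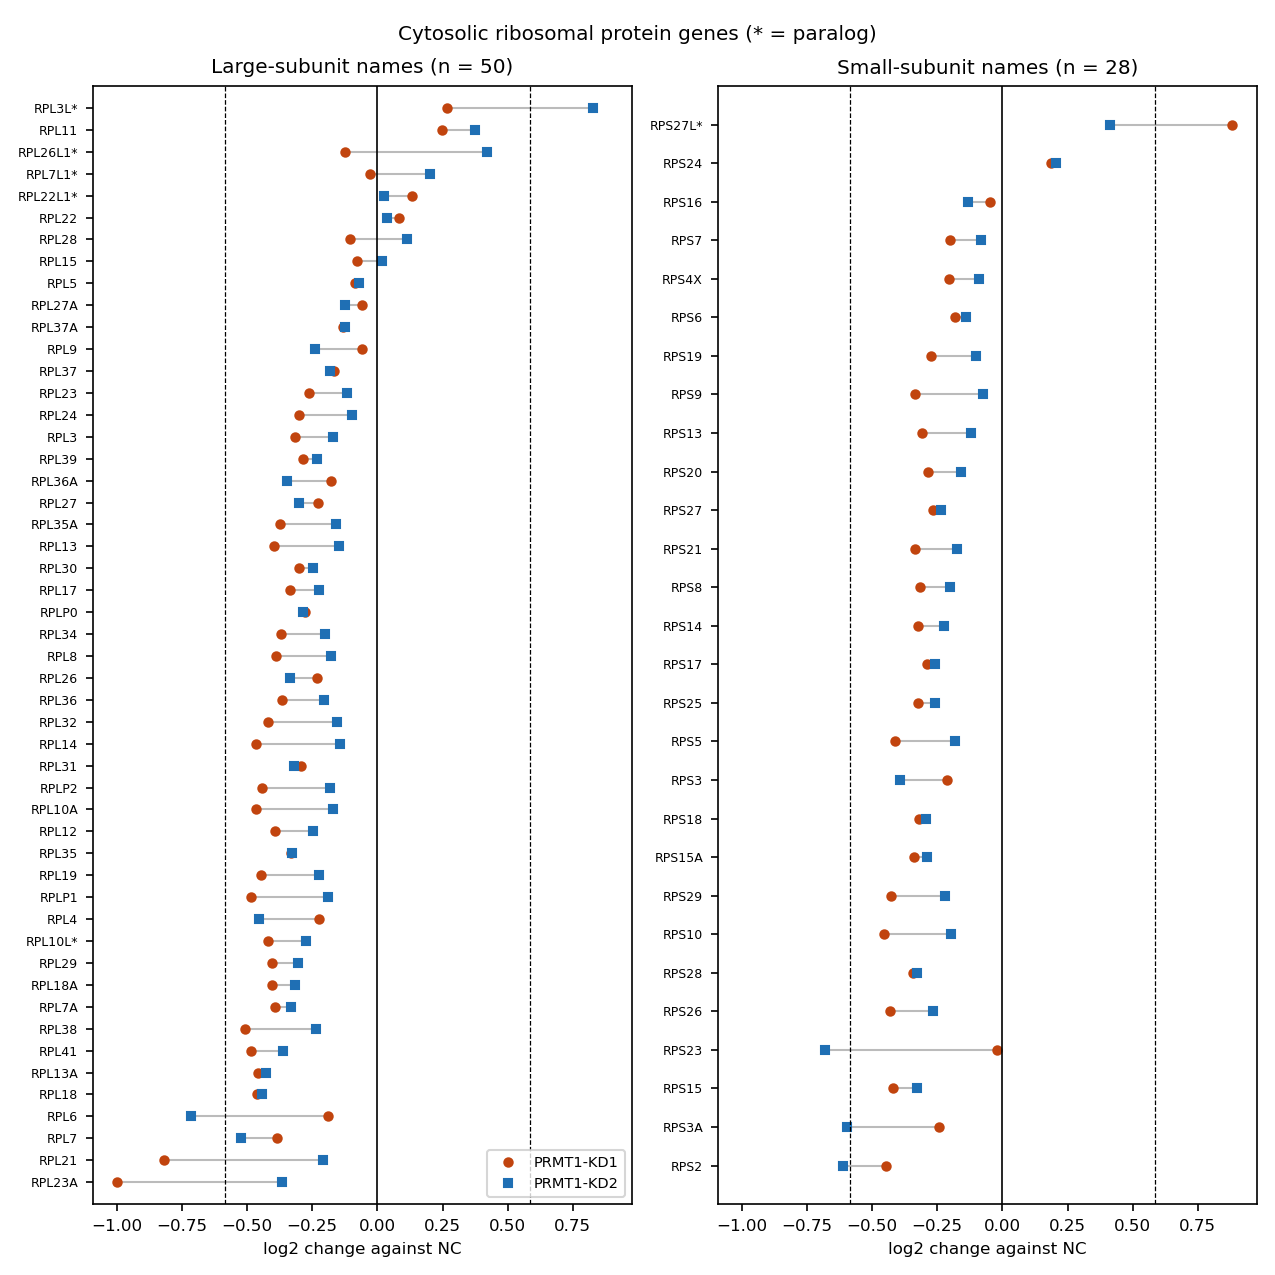
Log2 change against NC (x axis) of 78 of the 79 measured ribosomal protein genes, 50 with large-subunit and 28 with small-subunit names, ordered by mean change; circles are PRMT1-KD1, squares PRMT1-KD2, 1 array each, dashed lines mark 1.5-fold, and asterisks mark paralogs. Most points lie between -0.5 and 0, with RPL23A and RPL21 farthest left in KD1 and RPS27L, RPL3L and RPL11 on the right in both.

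**Figure D2:**
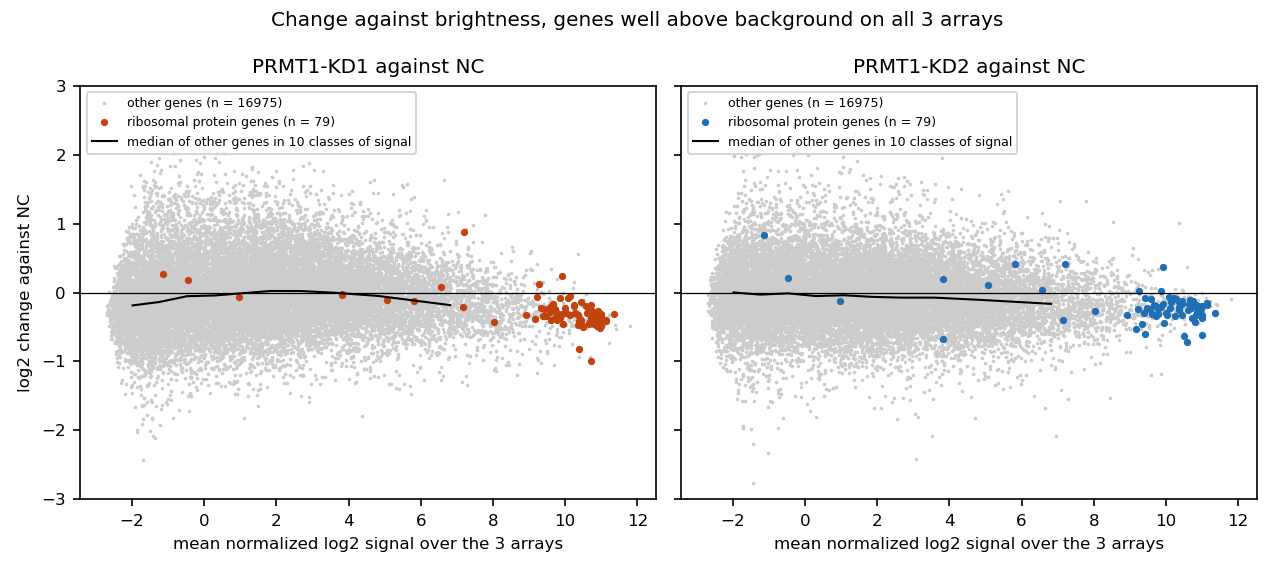
Log2 change against NC (y axis, cut at 3 in either direction, 2 genes outside) against the mean normalized log2 signal of the 3 arrays (x axis) for 79 ribosomal protein genes (coloured) and 16975 other genes (grey) well above background on all 3 arrays. The black line joins medians of the other genes in 10 equal classes of signal and slopes below 0 at the bright end, where nearly all ribosomal protein genes lie.

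Few members passed 1.5-fold (a log2 change of 0.58), fewer than among all genes. In KD1, 2 of 79 were lower, RPL23A and RPL21, and 1 was higher, RPS27L, where 14.0% of all 19231 genes were lower and 12.4% higher. In KD2, 5 were lower, RPL6, RPS23, RPS2 and RPS3A among them, and 1 was higher, RPL3L, where 10.6% of 19421 genes were lower and 9.68% higher. No member passed the fold in both knockdowns, in the same or in opposite directions. Between the knockdowns, RPL23A and RPL21 were lower in KD1 than in KD2 and RPS23 was higher, 2 and 1 of 79, against 9.66% and 8.94% of 19544 genes. Of the 109 equally bright other genes, 13 were past the fold lower in KD1 and 8 in KD2. With spike-in scaling the same counts in KD1 were 0 lower and 11 higher of 79, where 1.88% of all genes were lower and 49.5% higher. With the marked spots kept 7 of 81 were lower in KD1, against 14.5% of all genes.

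limma was fitted with both knockdowns as 1 group against the lone NC array, which assumes that NC varies as the knockdown arrays do. It called 0 of 79 members after Benjamini-Hochberg adjustment over all 20050 genes, where it called 83 genes (0.414%). At an unadjusted p under 0.05 the count was also 0 members, against 8.12% of all genes, and with an intensity trend in the variance it was 10, 9 of them lower, against 11.9% of all genes. In the fit without the trend RPS27L ranked first among the members, with a log2 change of 0.65. With the trend RPL23A did, at -0.68.

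The precision of a reading was set by repeated spots and by different probes of a gene. A probe of RPL30, a large-subunit protein, had 9 usable spots on each array, and its mean ± SD was 9.95 ± 0.021 in NC, 9.65 ± 0.029 in KD1 and 9.70 ± 0.020 in KD2. Its log2 changes of -0.30 and -0.25 were thus many times the spread of its spots, a spread that holds nothing of cultures, labelling or arrays. Different bright probes of the same member (32 genes, 79 probes) differed in their change with a pooled SD of 0.12 in KD1 and 0.064 in KD2. The difference between the knockdowns had a robust SD (scaled median absolute deviation) of 0.16 over the members and 0.38 over 17054 genes well above background on all arrays.

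RPL23A, a large-subunit protein at the exit of the peptide tunnel, was the lowest member in KD1. Its signal was 11.18 in NC, 10.18 in KD1 and 10.81 in KD2. KD1 alone was low, at 50.04% of NC, and KD2 was at 77.6%. The first 30 of the 60 bases of its probe, which is split over chr17:27050638-27050923 (hg19) and so crosses an exon junction, are shown to identify the reading.
RPL23A: gctttggatgttgccaacaaaattgggatc
Its 3 usable probes gave -0.999, -1.04 and -1.10 in KD1 and -0.37, -0.26 and -0.23 in KD2. Another probe, left out for its marked KD1 spot, gave -1.35 and -0.24. It overlaps the brightest probe, as the second usable probe does in part, so these readings share targets. Relative to the median member, RPL23A was -0.68 in KD1, and between -0.74 and -0.63 over 11 settings of scaling, background and probe choice. Settings that differ only by a scaling factor per array leave such a difference unchanged by construction, so they add nothing to this range or those below.

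RPL21, also of the large subunit, behaved alike. Its signal was 10.72 in NC, 9.90 in KD1 and 10.51 in KD2, again low in KD1 alone, at 56.6% of NC against 86.4% in KD2. All 7 usable probes were low in KD1, from -1.02 to -0.82, and ranged from -0.31 to -0.13 in KD2. A pair of further probes with marked KD1 spots gave -1.46 and -1.31. The probes overlap in part, and 1 of them is placed on chromosome 10, so they share targets and may read retrocopies of RPL21. The probe below crosses a junction at chr13:27829472-27830360 (hg19) and gave -1.02 and -0.23.
RPL21: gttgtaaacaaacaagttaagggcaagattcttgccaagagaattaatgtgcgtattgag
Relative to the median member RPL21 was -0.50 in KD1 (-0.59 to -0.47 over the 11 settings) and 0.00 in KD2. The pseudogene-named probe RPL23AP7 read -1.04 in KD1, and near-identical copies of these genes cannot be told apart by their names.

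In KD2 different members were lowest. RPL6, a large-subunit protein, read 10.87 in NC, 10.68 in KD1 and 10.16 in KD2, and both of its probes were low in KD2 (-0.71 and -0.96) and not in KD1 (-0.19 and -0.24). The second probe crosses a junction at chr12:112844674-112846082 (hg19).
RPL6: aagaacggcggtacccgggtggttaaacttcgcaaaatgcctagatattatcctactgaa
Relative to the median member RPL6 was -0.50 in KD2 (-0.64 to -0.48 over the settings) and 0.13 in KD1. RPS3A, a small-subunit protein, read 9.70, 9.45 and 9.10 in NC, KD1 and KD2. Of its 5 usable probes, 4 gave -0.60 to -0.57 in KD2. All of these 4 but the brightest overlap around chr4:152024086-152024145 (hg19), so they share a target site. The fifth, a dim probe (0.67 in NC) to another transcript, gave 0.17. In KD1 the 5 probes ranged from -0.24 to 0.21, so that only the KD2 reading was shared between probes.

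RPS2, a small-subunit protein and the substrate of PRMT3, read 11.36 in NC, 10.91 in KD1 and 10.74 in KD2, log2 changes of -0.45 and -0.61, from a probe at chr16:2012861-2013159 (hg19).
RPS2: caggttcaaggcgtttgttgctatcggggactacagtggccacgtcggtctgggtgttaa
A second usable probe of RPS2 gave -0.37 and -0.60, and another, brighter probe with a marked KD1 spot gave -0.65 and -0.19, so the low KD2 reading of RPS2 was not shared by all its probes. Relative to the median member RPS2 was -0.13 in KD1 (-0.31 to -0.04 over the settings) and -0.40 in KD2 (-0.41 to 0.03), and its KD1 change against NC became 0.20 with spike-in scaling. RPL7, also among the 5 lowest by mean change, read 9.47, 9.08 and 8.95 by the brightest of its 3 usable probes. Its other probes gave 0.09 and 0.07 in KD1 and -0.16 and -0.24 in KD2, so its low KD1 reading was not shared. PRMT3 itself read -0.22 in NC, 0.83 in KD1 and -0.16 in KD2.

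Marked spots decided the reading of a few members. The bright probes of RPS23, RPS24 and RPL28 had marked KD1 spots, and dimmer probes stood for these genes, with changes of -0.02 and -0.68 for RPS23, 0.19 and 0.21 for RPS24 and -0.11 and 0.12 for RPL28. The bright probes gave -0.58 and -0.23, -0.86 and -0.48, and -0.89 and -0.29. RPS24 was therefore among the 5 highest members only through its dim probe. RPS23 likewise passed the fold in KD2 and between the knockdowns only through its dim probe. Its bright probe gave -0.35 for KD1 minus KD2, the opposite direction, with the KD1 spot marked. The 18 marked probes had a median of -0.65 in KD1 and -0.24 in KD2, and in KD1 15 of the 16 with a usable partner read lower than it, against 5 of 16 in KD2.

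**Figure D3:**
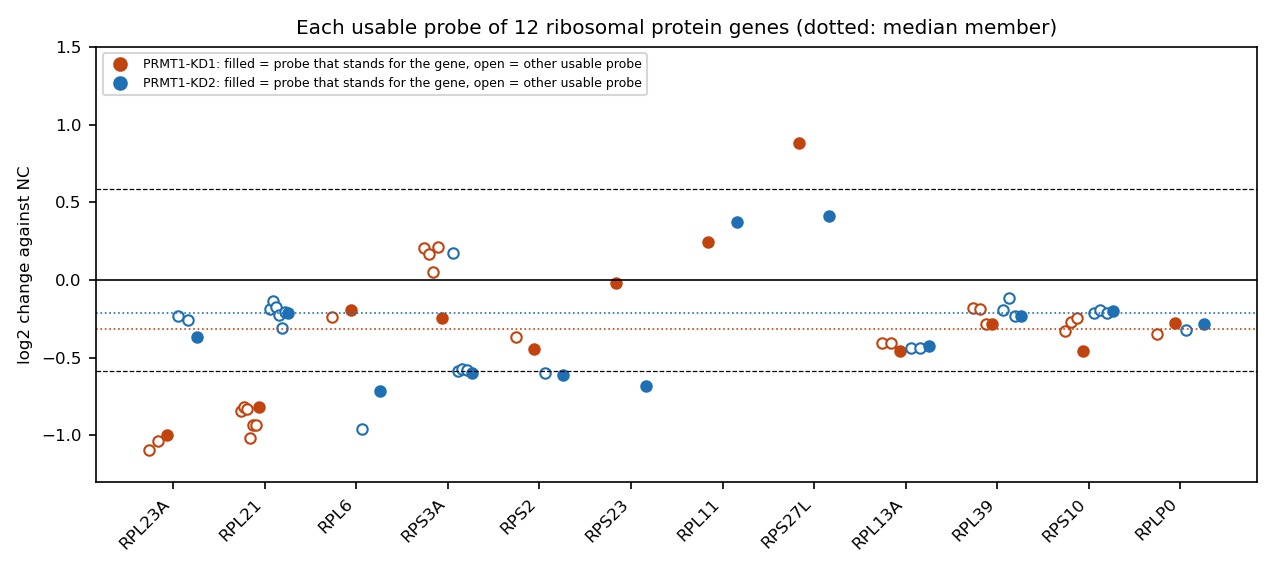
Log2 change against NC (y axis) of every usable probe, well above background on all 3 arrays, of 12 ribosomal protein genes (x axis); filled points are the probe that stands for the gene, dotted lines the median member of each knockdown and dashed lines 1.5-fold. All probes of RPL23A and RPL21 lie low in KD1, both of RPL6 in KD2, and RPL13A, RPL39, RPS10 and RPLP0 are shown for the usual spread between probes.

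The MDM2-binding members RPL5, RPL11 and RPL23 all lay above the median member in both knockdowns, RPL11 farthest by the brightest probes. RPL11 read 9.72 in NC, 9.96 in KD1 and 10.09 in KD2, log2 changes of 0.25 and 0.37 from 1 probe. Relative to the median member RPL11 was 0.56 and 0.58, and at least 0.54 in both knockdowns under each of the 11 settings. Those that change only a scaling factor could not move it, and with 1 probe the choice of probe could act only through the median. RPL5 read 10.14, 10.05 and 10.06, with changes of -0.09 and -0.07. Its probes differed in KD1, where a pair of dimmer usable probes gave 0.35 and 0.55 (-0.06 and -0.09 in KD2) and a marked spot -0.43. Relative to the median member RPL5 was 0.23 in KD1 by its brightest probe and 0.57 by the mean over its probes, a value as high as that of RPL11. In KD2 it was 0.14 by its brightest probe. RPL23 read 10.87, 10.61 and 10.76, with changes of -0.26 and -0.12, which was 0.05 and 0.09 from the median member.

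The stalk proteins RPLP0, RPLP1 and RPLP2, which recruit translation factors to the ribosome, stayed with the bulk. RPLP0 read 11.04, 10.76 and 10.76. RPLP1 read 11.11, 10.63 and 10.92, and RPLP2 11.02, 10.57 and 10.83. Their changes were -0.49 to -0.28 in KD1 and -0.28 to -0.18 in KD2. RPS6, the small-subunit target of S6 kinase, read 10.82, 10.64 and 10.68.

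The paralogs, duplicated copies used in some tissues or states, were the members that most often lay above NC. Of 7 paralogs 6 were measured, and 3 were below NC in KD1 and 1 in KD2, against 70 and 68 of the 73 other members. Among all genes the shares below NC were 55.5% and 54.3%. Each of the 6 had a mean signal below the first quartile of the members (9.52), and whether the contrast goes with brightness was not tested. RPS27L, a target of p53 whose protein resembles RPS27, read 6.77 in NC, 7.66 in KD1 and 7.19 in KD2, 184% and 133% of NC. Its parent RPS27 read 11.07, 10.80 and 10.83, slightly below NC in both. The probes of the pair lie at chr15:63447866-63447925 and chr1:153964053-153964112 (hg19), and are shown with the bases that differ in capitals, 12 of the 54 aligned.
RPS27L: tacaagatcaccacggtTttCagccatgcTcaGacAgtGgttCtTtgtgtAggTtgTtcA
RPS27: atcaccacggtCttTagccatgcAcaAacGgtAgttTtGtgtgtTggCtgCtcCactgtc
Relative to the median member RPS27L was 1.20 in KD1 (1.00 to 1.23 over the settings) and 0.62 in KD2 (0.52 to 0.63).

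RPL22L1 and its parent RPL22, which is known to repress RPL22L1, both read near NC and above the median member. RPL22L1 read 9.21, 9.34 and 9.24, and relative to the median member it was 0.45 in KD1 (0.39 to 0.46 over the settings) and 0.24 in KD2. RPL22 read 6.53, 6.61 and 6.57, which was 0.40 (0.12 to 0.57) and 0.25 from the median member, and a second, dim probe of RPL22 gave changes of 0.45 and -0.15. RPL26L1 read 5.71, 5.59 and 6.13, highest in KD2, against 9.92, 9.68 and 9.58 for RPL26. RPL7L1, a relative of RPL7, read 3.77, 3.74 and 3.97. RPL3L, a form of RPL3 found in muscle, read -1.51, -1.25 and -0.69, a dim reading that was above NC in both (0.27 and 0.83). With normexp background correction these changes were 0.017 and 0.29, under 1.5-fold, which left 0 members higher in KD2. Its parent RPL3 read 10.08, 9.76 and 9.91. RPL10L, a testis copy of RPL10, read 8.25, 7.83 and 7.98 and moved as the usual members did. Whether its probe also reads RPL10 was not tested. RPL39, the parent of RPL39L, read 9.74, 9.45 and 9.51.

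**Figure D4:**
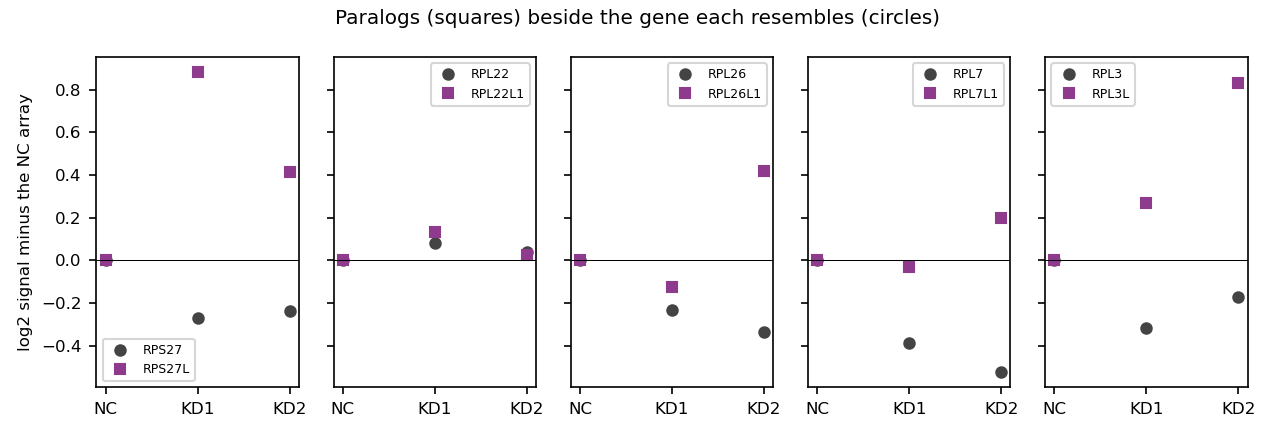
Log2 signal minus that of the NC array (y axis) on the NC, KD1 and KD2 arrays (x axis) for 5 paralogs (squares) and the gene each resembles (circles), 1 array per point. RPS27L is highest in KD1 and RPL26L1 and RPL3L in KD2, while RPS27, RPL26, RPL7 and RPL3 lie below 0 on both knockdown arrays.

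A few further ribosomal protein genes lie outside the name rule. FAU, which encodes a ubiquitin-like protein fused to eS30, read 10.60, 10.41 and 10.46. GNB2L1 (RACK1) and RPL36AL were lower by less than 1.5-fold as well. Among 77 genes of the mitochondrial ribosome, a separate set of proteins, the median was -0.02 in KD1, with 5 past the fold lower and 5 higher, and -0.22 in KD2, with 12 lower and 0 higher. For 15 translation factors and other TOP messenger RNAs the medians were 0.03 and -0.05, with 0 lower and 1 higher in KD1 and 0 lower and 2 higher in KD2.

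The regulators of ribosomal protein synthesis were mixed. Of 8 genes, 1 was past the fold lower and 1 higher in KD1, and 2 lower and 1 higher in KD2. EIF4EBP1, a translation repressor that mTOR inactivates, read 6.91, 6.21 and 6.17, low in both knockdowns. EIF4EBP2, its relative, read 5.50, 5.13 and 4.25. MYC, which drives transcription of ribosomal protein genes, read 6.20, 7.08 and 6.95, high in both. Of 12 modifiers and chaperones of ribosomal proteins, 0 were lower and 2 higher past the fold in KD1, and 1 lower and 0 higher in KD2. The shares of all genes given above apply to these counts too.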

How the data were processed

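RNA of 3 samples was hybridised to SurePrint G3 Human Gene Expression v3 arrays, as the authors describe. The deposited intensity values were extracted by the authors with Agilent Feature Extraction 10.7.1.1 and are background-corrected processed signals, not scaled between arrays. A second deposited table held the mean signal of all spots of a probe, unscaled, and was used as an alternative. Probe positions are those of the file headers' hg19 build.

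Spots marked non-uniform or as population outliers were left out, and 58071 of 58201 non-control probes had a usable spot on all arrays. The log2 signal minus the array's 75th percentile over these same probes was used, so that arrays were scaled on equal sets. Repeated spots were averaged, the brightest probe stood for a gene, and values below the lowest signal well above background were raised to it. A gene was counted where it was well above background on 1 of the arrays compared or more. A fold of 1.5 was taken from the authors' methods, without their p-value, which needs replicates. limma 3.58.1 (R 4.3.3) was used for lmFit and eBayes. Functions were tested on simulated data. Precision is limited by the number of arrays, 1 per group.

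Named members were, by rule, the 5 lowest and 5 highest by mean change, those past the fold in both knockdowns, the paralogs with their parents, the stalk genes, and RPL5, RPL11, RPL23, RPS6, RPS2 and RPSA. RPL6, RPS3A, RPS23, RPL28 and RPL30, outside it, were named after their values were seen. A few items are not reported here. Members and lists were chosen with earlier results of these data known. Fitted alternatives were other background correction, scaling, filters, probe rules and folds.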

Additional observations from a re-analysis of the deposited data

Results flagged for a closer look

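Members whose changes against NC had opposite signs in the knockdowns were singled out, without a test, since each group had 1 array. The difference KD1 minus KD2 on the log2 scale was -0.095 for RPL15, -0.22 for RPL28, -0.23 for RPL7L1 and -0.54 for RPL26L1. RPL28 was read by its dim probe, and its brighter probe, with a marked KD1 spot, was below NC in both knockdowns. A robust SD of 0.16 for this difference over the members exceeds the value for RPL15.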

How the results depend on the processing

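In the order lower and higher in KD1 than NC, lower and higher in KD2 than NC, and lower and higher in KD1 than KD2, the counts past 1.5-fold were 2, 1, 5, 1, 2 and 1. Quantile normalization gave 1, 2, 1, 2, 0 and 2, and medians of 0.030 in KD1, 0.014 in KD2 and 0.029 between them, reversed from -0.32, -0.21 and -0.10. The deposited unscaled table gave 0, 3, 2, 1, 0 and 4 and reversed the medians in KD1 (0.081) and between the knockdowns (0.20). The medians of all genes there were 0.34 and 0.30, so the members stayed below them. Spike-in scaling, chosen after seeing the data, gave 0, 11, 0, 4, 0 and 4 and medians of 0.33, 0.080 and 0.26, where those of all genes were 0.58, 0.24 and 0.35. Over all genes the same 6 counts were 2696, 2383, 2049, 1879, 1888 and 1747. They moved by over 1.5 times for all 6 with spike-in scaling (361, 9512, 704, 4382, 603 and 5426) and, over 41749 genes in place of 19231 to 19544, with no filter or floor (5397, 4311, 4069, 4703, 5218 and 3388). With normexp all but those higher in KD1 than NC did (958, 971, 795, 496 and 1096), with the unscaled table those in KD1 against NC and between the knockdowns (695, 6248, 681 and 4811), and with median scaling the last 4 (3513, 1175, 767 and 4147). Median scaling gave 8 lower in KD2 and 0 and 4 between the knockdowns, whose median became 0.17, where that of all genes was 0.26. The percentile over detected probes gave 2 lower in KD2 and 4 and 0 between the knockdowns. normexp correction gave 3 lower and 0 higher in KD2 and 1 and 3 between the knockdowns. Keeping marked spots gave 7 lower in KD1 and 4 and 0 between the knockdowns. The mean over probes gave 2 higher in KD1 than KD2. A fold of 2 left 0 members in each of the 6 counts, and the share of all genes past it was not counted. Each probe counted on its own, 144 in all, gave 11 lower and 2 higher in KD1, 9 lower in KD2, and 12 and 9 between the knockdowns. Of the 11 lower in KD1, 7 were probes of RPL21, and the share of all probes was not counted. Without the 7 paralogs, also chosen after seeing the data, 0 were higher in KD1 and 0 in KD2. The cause of each difference was not tested, beyond fewer or more features counted. limma did not call a member under any alternative. In some alternatives it called hardly any gene at all, so this is not particular to the members. No paired analysis was possible because each group had 1 array, and leaving out an array leaves no residual degree of freedom.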
